A study of Mus musculus with 4 samples.

Results

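A set of 40 genes of DNA replication and cell division was followed across labelled T cells from tumors and lymph nodes of mice with B16 melanoma, a transplantable mouse skin tumor. The members were taken by symbol from a list of proliferation genes, and all 40 were rows of the deposited count table, which holds 14721 genes. They comprise 16 replication genes and 24 mitosis genes. The mitosis genes were divided into 18 core genes, whose products act mainly in dividing cells, and 6 genes with wider use outside division.

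Per the labels' protocols, mice with tumors received a single dose of 250 mg/kg cyclophosphamide, an alkylating drug that kills dividing lymphocytes, and 1 day later CD4 T cells (CD45.1) with a transgenic receptor for the melanocyte protein TRP1. Tissue was taken 11 days after transfer. Every sample carries the strain label RAG1- BW TRP-1 TCR and the treatment label untreated, so dose, transfer and time are shared by both tissues. The tumor RNA library is titled transgenic and endogenous and the lymph node RNA library endogenous, so tissue and cell origin cannot be told apart. The sources used here do not give the host strain, the age or the number of animals.

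The tumor library held 5570 cells and 33147030 UMIs, and the lymph node library 4988 cells and 29067001 UMIs. A UMI is a molecular tag that marks 1 captured RNA molecule. Cells were grouped by the authors' deposited cell labels: 2693 tumor Tdp cells (median 6633 UMIs), 2451 tumor Cd4 cells (5533 UMIs), 321 lymph node Treg cells (5225 UMIs), 2788 lymph node Cd8 cells (6306 UMIs) and 1873 lymph node Cd4 cells (4763 UMIs). A further 406 tumor cells were labelled Tcell, at a median of 2040 UMIs, and the remaining labels held few cells (19 tumor Treg, 1 tumor Cd8 and 6 lymph node Tdp cells). The sources used here do not say what Tdp stands for or how the labels were assigned. The labels describe all cells as sorted CD4 and double positive T cells, whereas Cd8b1, a chain of the CD8 coreceptor, stood at 1118 CPM in tumor Tdp cells, 41.2 CPM in tumor Cd4 cells, 157 CPM in lymph node Treg cells, 1144 CPM in lymph node Cd8 cells and 33.6 CPM in lymph node Cd4 cells. CPM scales a gene's UMIs by all UMIs of its group. With a single RNA library from each tissue there are no replicates, no test was made, and every 95% interval (exact Poisson for levels and ratios, exact Clopper-Pearson for shares) covers counting error only. UMI counts are not scaled by gene length, and levels are compared between groups, not between genes.

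A cell that divides first copies its DNA and then separates the copies. In replication, the MCM helicase opens the double strand, the PCNA clamp holds the polymerase on it, and enzymes such as thymidylate synthase and ribonucleotide reductase supply the building blocks. In mitosis, cyclin B with CDK1 starts the division, kinetochore proteins and motors move the chromosomes, and UBE2C and CDC20 serve the anaphase-promoting complex that ends it. Transcription of the first group is controlled largely by E2F factors late in G1, and of the second by the DREAM and MuvB complexes, which bind an element called CHR, often next to CCAAT boxes. Activated T cells divide fast, while naive T cells in a lymph node rarely divide.

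Stretches of the RefSeq promoters (build GRCm38.p6, as for all positions given) are printed for 3 mitosis and 3 replication genes that recur below. They are examples that hold the motifs of their group, which not every member does. In the mitosis genes capitals mark matches to the CHR core (TTTGAA, or TTCAAA on the other strand) and the CCAAT box (CCAAT, or ATTGG on the other strand). In the replication genes they mark only matches to an E2F motif (TTTCCCGC, TTTGGCGC, TTTCGCGC or TTTGCCGC, on either strand). Each stretch runs 5′ to 3′ on the gene's own strand. No matches of different kinds overlapped in the printed stretches.
Cdc20, chr4:118437344-118437431, minus strand: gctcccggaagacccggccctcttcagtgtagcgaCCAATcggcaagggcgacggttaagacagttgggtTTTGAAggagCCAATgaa
Ube2c, chr2:164769830-164769920, plus strand: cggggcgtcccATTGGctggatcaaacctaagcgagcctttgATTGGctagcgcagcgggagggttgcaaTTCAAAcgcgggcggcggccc
Top2a, chr11:99024192-99024282, minus strand: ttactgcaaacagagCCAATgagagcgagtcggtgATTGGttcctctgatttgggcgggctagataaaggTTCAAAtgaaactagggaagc
Mcm6, chr1:128359730-128359822, minus strand: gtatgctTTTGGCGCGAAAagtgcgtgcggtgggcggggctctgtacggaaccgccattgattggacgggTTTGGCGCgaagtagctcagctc
Mcm5, chr8:75109290-75109382, plus strand: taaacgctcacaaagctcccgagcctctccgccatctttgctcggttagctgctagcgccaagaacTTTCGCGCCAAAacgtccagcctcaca
Hells, chr19:38930858-38930950, plus strand: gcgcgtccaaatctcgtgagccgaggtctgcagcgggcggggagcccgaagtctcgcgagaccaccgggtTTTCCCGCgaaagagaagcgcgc
The last CHR core lies 12 bases before the start site of the promoter table in Cdc20, 23 in Ube2c and 17 in Top2a. The last E2F match lies 39 bases before it in Mcm6, 141 in Mcm5 and 54 in Hells.

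In windows of 300 bases (250 before and 50 after each annotated start), the CHR core was found in 10 of 15 core mitosis windows, in 1 of 18 replication windows and in 17.9% of all 32851 windows. The E2F motif was found in 1 of 15 core mitosis windows, in 8 of 18 replication windows and in 2.26% of all windows. CCAAT boxes were found in 13 of 15 core mitosis and 12 of 18 replication windows, against 37.4% of all windows. Of the matched replication genes, Dut, Pcna, Tyms, Rrm1, Rrm2 and Mcm2 had no E2F match, and Mcm2 was the one with a CHR core. Of the matched core mitosis genes, Birc5 and Nusap1 had neither a CHR core nor a CCAAT box. Ccnb1, Bub1 and Cenpe had a CCAAT box but no CHR core. The 5 windows of broader genes held the CHR core in 2, the CCAAT box in 4 and the E2F motif in none. These are matches of letters and not sites of binding. Mcm4, Gins2, Stmn1, Aurkb, Ccna2 and Tpx2 were not matched to the promoter table.

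Replication genes were detected in every label, with 4 or 5 of the 16 below 5 CPM in each of the 5 labels compared. Their summed level was higher in both tumor labels than in lymph node Cd8 and Cd4 cells. Dut, Pcna and Mcm6 made up most of that excess. Between tumor and lymph node Cd4 cells, the log2 interval lay above 0 for 7 of the 16 genes and below 0 for 2. Between tumor Tdp and lymph node Cd8 cells these counts were 5 and 1. The share of all genes with such intervals was not counted, so these counts have no background to be read against. The 16 genes together stood at 339 CPM in tumor Tdp cells and 405 CPM in tumor Cd4 cells, and at 318 CPM in lymph node Treg cells, 253 CPM in lymph node Cd8 cells and 245 CPM in lymph node Cd4 cells. Per cell this was 2.30, 2.31, 1.89, 1.64 and 1.18 UMIs in the same order of labels.

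Among the helicase subunits, Mcm6 (chr1:128331575-128359705) differed most between labels. Mcm6 stood at 56.6 CPM in tumor Tdp cells (53.2 to 60.2) and 53.7 CPM in tumor Cd4 cells (49.9 to 57.7), and at 55.7 CPM in lymph node Treg cells (45.6 to 67.3), 28.1 CPM in lymph node Cd8 cells (25.7 to 30.6) and 18.9 CPM in lymph node Cd4 cells (16.2 to 22.0). The first 3 labels could not be separated by their intervals, and both remaining lymph node labels lay below them. Mcm2 ranged from 11.4 to 13.7 CPM over the 5 labels, Mcm3 from 14.9 to 17.3 CPM and Mcm4 from 23.2 to 29.1 CPM. Mcm7 ranged from 18.8 CPM in tumor Cd4 cells to 28.5 CPM in lymph node Cd4 cells. Mcm5 lay between 5.75 and 7.12 CPM in 4 labels and at 12.1 CPM (7.66 to 18.1) in lymph node Treg cells. The subunits of this 1 complex therefore did not share a pattern over the labels.

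Genes of nucleotide supply other than Rrm2 stood higher in the tumor labels than in lymph node Cd8 and Cd4 cells. Dut (chr2:125247248-125259049), which removes dUTP from the nucleotide pool, stood at 90.9 CPM in tumor Tdp cells (86.6 to 95.4) and 149 CPM in tumor Cd4 cells (143 to 156), and at 66.7 CPM in lymph node Treg cells, 57.0 CPM in lymph node Cd8 cells and 48.9 CPM in lymph node Cd4 cells. Tyms, thymidylate synthase, stood at 12.1 and 12.3 CPM in tumor Tdp and Cd4 cells and at 12.1, 6.62 and 6.00 CPM in lymph node Treg, Cd8 and Cd4 cells. Rrm1, the large subunit of ribonucleotide reductase, stood at 11.3 and 11.4 CPM in the same tumor labels and at 9.98, 8.17 and 6.56 CPM in the same lymph node labels. Its partner Rrm2, whose transcript is known to be tied more closely to S phase, stayed between 2.79 and 3.89 CPM in all 5 labels, with intervals that overlap.

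Pcna stood at 61.7 and 67.9 CPM in tumor Tdp and Cd4 cells and at 45.2, 44.7 and 51.6 CPM in lymph node Treg, Cd8 and Cd4 cells. Hells, a chromatin remodeller of replicating DNA, stood at 11.4 and 15 CPM in the tumor labels and at 7.88, 10.0 and 6.00 CPM in the lymph node labels. The DNA ligase gene Lig1 stood at 4.99 and 5.08 CPM in the tumor labels, at 11.6 CPM (7.24 to 17.5) in lymph node Treg cells, and at 4.19 and 3.78 CPM in lymph node Cd8 and Cd4 cells. The interval of Lig1 in the Treg label lay above those of the 4 other labels. Uhrf1, which guides DNA methylation onto new strands, ranged from 1.33 to 4.44 CPM, Gins2, a helicase partner, from 2.48 to 4.20 CPM, and Pclaf, a PCNA partner, from 1.21 to 4.73 CPM.

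Core mitosis genes were scarce in every label. Of the 18 genes, 15 lay below 5 CPM in tumor Tdp and in tumor Cd4 cells, 12 in lymph node Treg cells, and 16 in lymph node Cd8 and in lymph node Cd4 cells. Their summed level was 84.1 CPM in tumor Tdp cells (80.0 to 88.4), 97.0 CPM in tumor Cd4 cells (91.9 to 102), 132 CPM in lymph node Treg cells (116 to 149), 55.2 CPM in lymph node Cd8 cells (51.9 to 58.8) and 58.8 CPM in lymph node Cd4 cells (53.9 to 64.0). Cenpa, the centromeric histone, and Top2a, topoisomerase II, made up most of these sums. Without them the other 16 genes summed to 28.7 and 26.3 CPM in tumor Tdp and Cd4 cells and to 56.2, 19.8 and 12.8 CPM in lymph node Treg, Cd8 and Cd4 cells.

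Mki67 (chr7:135689784-135716450), which encodes the proliferation antigen Ki-67, stood at 8.60 CPM in tumor Tdp cells (157 UMIs, 7.31 to 10.1) and 6.87 CPM in tumor Cd4 cells (96 UMIs, 5.57 to 8.40). In lymph node it stood at 6.83 CPM in Treg cells (13 UMIs, 3.64 to 11.7), 2.43 CPM in Cd8 cells (44 UMIs) and 1.33 CPM in Cd4 cells (12 UMIs). Both tumor labels and the Treg label lay above the other 2 lymph node labels. Top2a (chr11:98992947-99024199) stood at 19.3 and 26.9 CPM in tumor Tdp and Cd4 cells and at 14.2, 10.5 and 8.78 CPM in lymph node Treg, Cd8 and Cd4 cells. Cenpa stood at 36.2 and 43.8 CPM in the tumor labels and at 61.5, 24.9 and 37.2 CPM in the same lymph node labels.

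Among genes of the mitotic entry and exit machinery, Ube2c (chr2:164769929-164772902) stood apart in the Treg label. Ube2c, the ubiquitin-conjugating enzyme of the anaphase-promoting complex, stood at 4.11 CPM in tumor Tdp cells (75 UMIs) and 1.72 CPM in tumor Cd4 cells (24 UMIs), and at 21.0 CPM in lymph node Treg cells (40 UMIs, 15 to 28.6), 4.86 CPM in lymph node Cd8 cells (88 UMIs) and 3.11 CPM in lymph node Cd4 cells (28 UMIs). Its adaptor partner Cdc20 ranged from 2.00 to 2.48 CPM over the 5 labels, with intervals that overlap. Birc5, the survivin subunit of the chromosomal passenger complex, stood at 0.438 and 0.716 CPM in tumor Tdp and Cd4 cells (8 and 10 UMIs) and at 6.83, 1.49 and 1.45 CPM in lymph node Treg, Cd8 and Cd4 cells (13, 27 and 13 UMIs). Its partner Aurkb, the kinase of that complex, stood at 2.08 and 0.716 CPM in the tumor labels and at 2.63, 1.05 and 0.556 CPM in the lymph node labels.

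The cyclins and their kinase were near the limit of detection. Cdk1 had 26 UMIs in tumor Tdp cells and 33 in tumor Cd4 cells, and 0, 18 and 3 UMIs in lymph node Treg, Cd8 and Cd4 cells. A count of 0 in the Treg label allows up to 1.58 CPM (3 UMIs), above the level of Cdk1 in tumor Tdp cells (1.43 CPM), so its absence there is not shown. Ccnb1 (cyclin B1) had 32 and 30 UMIs in the tumor labels and 2, 9 and 3 UMIs in the lymph node labels, while Ccnb2 (cyclin B2) had 8 and 10 UMIs in the tumor labels and 9, 19 and 9 UMIs in the lymph node labels. Ccnb1 thus stood higher in both tumor labels than in lymph node Cd8 and Cd4 cells, beyond its intervals, while Ccnb2 did not: it stood at 0.438 and 0.716 CPM in the tumor labels and at 4.73, 1.05 and 1.00 CPM in the lymph node labels, where only the Treg interval (2.16 to 8.97) lay above the others. Ccna2 (cyclin A2) had 1 UMI in lymph node Treg cells, none in lymph node Cd4 cells and 4 to 6 UMIs in the other labels.

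Kinetochore, spindle and checkpoint genes were as sparse. Kif11, the motor that separates the spindle poles, stood at 2.96 and 2.36 CPM in tumor Tdp and Cd4 cells and at 1.05, 0.828 and 0.445 CPM in lymph node Treg, Cd8 and Cd4 cells. Nusap1, a spindle microtubule binder, stood at 1.86 and 2.43 CPM in the tumor labels and at 1.05, 1.10 and 0.445 CPM in the lymph node labels. Cenpe, a kinetochore motor, had 7 and 9 UMIs in the tumor labels and 10, 10 and 4 UMIs in the lymph node labels, which put the much smaller Treg group highest at 5.25 CPM (2.52 to 9.66). Cenpf, a further kinetochore protein, had 3 to 10 UMIs per label, Plk1, a mitotic kinase, 1 to 11, Tpx2, which builds the spindle, 1 to 23, and the checkpoint kinase gene Bub1 0 to 3.

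The 6 genes with wider use outside division were abundant in sum, and their sum did not follow the core sum over the labels. Their sum was 684 CPM in tumor Tdp cells and 820 CPM in tumor Cd4 cells, and 929, 814 and 807 CPM in lymph node Treg, Cd8 and Cd4 cells. The tubulin gene Tubb5 stood at 249 and 234 CPM in the tumor labels and at 352, 425 and 389 CPM in the lymph node labels. Stmn1, which takes microtubules apart, stood at 16.8 and 19.3 CPM in the tumor labels and at 28.4, 25.8 and 49.3 CPM in the lymph node labels. Both stood lower in each tumor label than in each lymph node label, although the intervals of Stmn1 in tumor Cd4 and lymph node Treg cells overlap. Cks2, a small CDK subunit, was the other way round, at 95.8 and 164 CPM in the tumor labels and 63.0, 66.9 and 46.7 CPM in the lymph node labels. Hmgb2, a chromatin protein, stood at 217 and 284 CPM in the tumor labels and at 360, 175 and 171 CPM in the lymph node labels. Like the core sum, Hmgb2 was highest in lymph node Treg cells, followed by tumor Cd4 and then tumor Tdp cells. Tuba1b ranged from 97.7 to 140 CPM and Cks1b from 7.40 to 12.5 CPM.

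**Figure D1:**
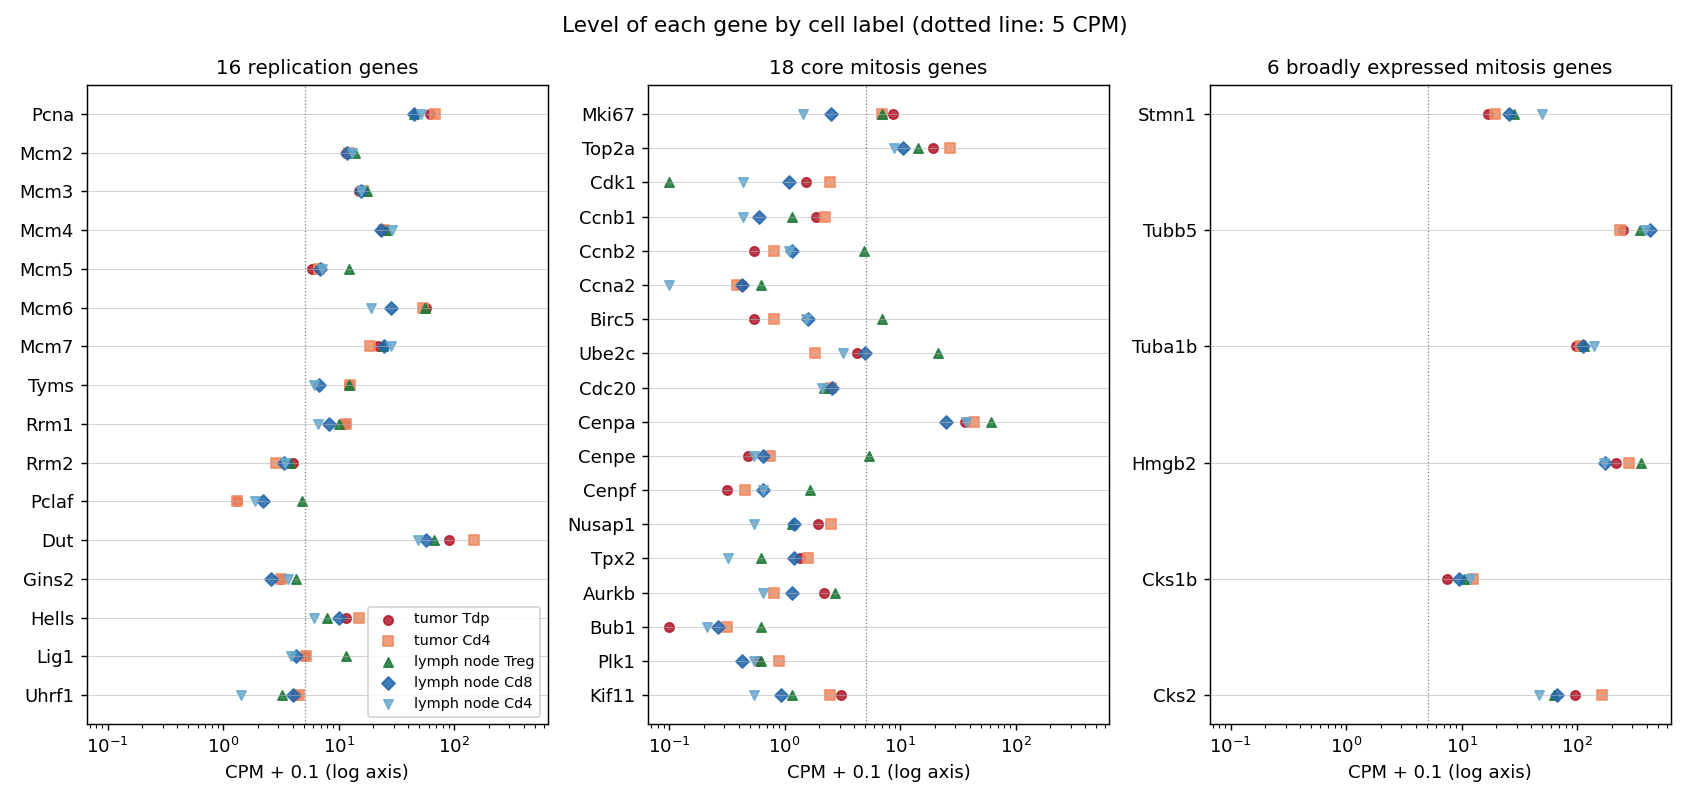
Level of each of the 40 genes (CPM plus 0.1, log axis) in 5 cell labels, 1 row per gene in 3 panels by gene group; points are sums over all cells of a label in 1 library, without error bars. Most core mitosis genes lie left of the dotted line at 5 CPM, while Ube2c, Birc5, Ccnb2 and Cenpe have their rightmost point in lymph node Treg cells.

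At equal depth, single genes were seen in a small part of the cells. With each cell of 2000 or more UMIs thinned at random to 2000, Mki67 was seen in 1.31% of tumor Tdp and 1.28% of tumor Cd4 cells, and in 0.971%, 0.326% and 0.110% of lymph node Treg, Cd8 and Cd4 cells. Mcm6 was seen in 11.9% and 10.4% of cells of the tumor labels and in 10.0%, 5.11% and 3.48% of cells of the lymph node labels. Dut was seen in 15.3% and 24.5% of cells of the tumor labels and in 11.0%, 10.4% and 9.28% of cells of the lymph node labels. The order of labels was that of the levels for Mki67 and Dut, and for Mcm6 lymph node Treg and tumor Cd4 cells changed places.

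Cells that carried several of the genes at once were few. In the thinned cells, a cell was counted when it had UMIs of 3 or more different genes among the 34 replication and core mitosis genes. This held for 118 of 2663 tumor Tdp cells (4.43%, 3.68% to 5.28%) and 142 of 2418 tumor Cd4 cells (5.87%, 4.97% to 6.89%). In lymph node it held for 15 of 309 Treg cells (4.85%, 2.74% to 7.88%), 44 of 2762 Cd8 cells (1.59%, 1.16% to 2.13%) and 34 of 1811 Cd4 cells (1.88%, 1.30% to 2.61%). Both tumor labels lay above lymph node Cd8 and Cd4 cells, and the 2 tumor labels had intervals that overlap.

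The class is a range on a scale and not a cell type. It left out 30, 33, 12, 26 and 62 cells under 2000 UMIs from tumor Tdp, tumor Cd4, lymph node Treg, Cd8 and Cd4 cells. On all UMIs the shares were 42.6%, 38.8%, 31.2%, 25.5% and 13.5% in this order, which puts Tdp above Cd4 cells in tumor, in reverse of the order at equal depth. With 5 or more genes at 2000 UMIs, 2 tumor Tdp, 6 tumor Cd4, 4 lymph node Treg, 3 lymph node Cd8 and 2 lymph node Cd4 cells were left. Of the 265 tumor cells in the class, 60.8% had Dut, 43.4% Pcna and 37.0% Mcm6, and of the 94 lymph node cells 43.6% had Dut, 36.2% Pcna and 36.2% Cenpa. Replication genes that many cells carry therefore filled the class, and free RNA, which was not estimated, can add to it. No label that should lack all of these genes was available, so the class has no background. The lowest share, 1.59% in lymph node Cd8 cells, cannot serve as one, since the 34 genes differ in summed level between labels. They summed to 308 CPM in lymph node Cd8 cells, 423 CPM in tumor Tdp cells and 502 CPM in tumor Cd4 cells. The share that each summed level alone would give was not computed.

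With 3 or more of the 16 core mitosis genes other than Cenpa and Top2a, on all UMIs, cells were rarer still. There were 4 such tumor Tdp cells of 2693 (0.149%), 5 tumor Cd4 cells of 2451 (0.204%), 8 lymph node Treg cells of 321 (2.49%, 1.08% to 4.85%), 5 lymph node Cd8 cells of 2788 (0.179%) and 3 lymph node Cd4 cells of 1873 (0.160%). The Treg interval lay above the shares of the 4 other labels, at a median depth below that of 3 of them. At 2000 UMIs per cell this could not be seen with 3 or more genes: 1 tumor Tdp, 2 tumor Cd4 and 1 lymph node Treg cell were left (0.0376%, 0.0827% and 0.324%, the last with an interval of 0.00819% to 1.79%), and no lymph node Cd8 or Cd4 cell, which allows shares of up to 0.133% and 0.203%. With 2 or more of the 16 genes at this depth, 6 of 309 Treg cells were counted (1.94%, 0.716% to 4.18%). The shares were 0.300% of tumor Tdp (up to 0.591%), 0.289% of tumor Cd4 (up to 0.596%) and 0.109% of lymph node Cd8 cells, with 0 of 1811 lymph node Cd4 cells. The 9 tumor cells with 3 or more genes on all UMIs had a median of 8086 UMIs and 2266 genes. The 16 such lymph node cells had 8489 UMIs and 2367.5 genes, against 5862 and 5594 UMIs in the remaining cells of the tumor and lymph node libraries.

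The share of cells with 2 or more of these 16 genes went up with the number of genes detected in a cell. Both were counted on all UMIs of the same cell. A rise from detection alone therefore cannot be told apart from one with division, and no count at equal depth was made for these steps. It was 0.378%, 0.875%, 1.69% and 5.77% in tumor cells with under 1500 genes and in the steps from there to 2000, 2500 and 3000 genes, and 0.257%, 0.605%, 4.52% and 7.11% in lymph node cells. No cell of either library had 3000 genes or more, although 50 tumor and 26 lymph node cells had at least 2900. The sources used here do not say whether cells above that number were left out before deposition, and how many dividing cells this would take away was not tested.

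**Figure D2:**
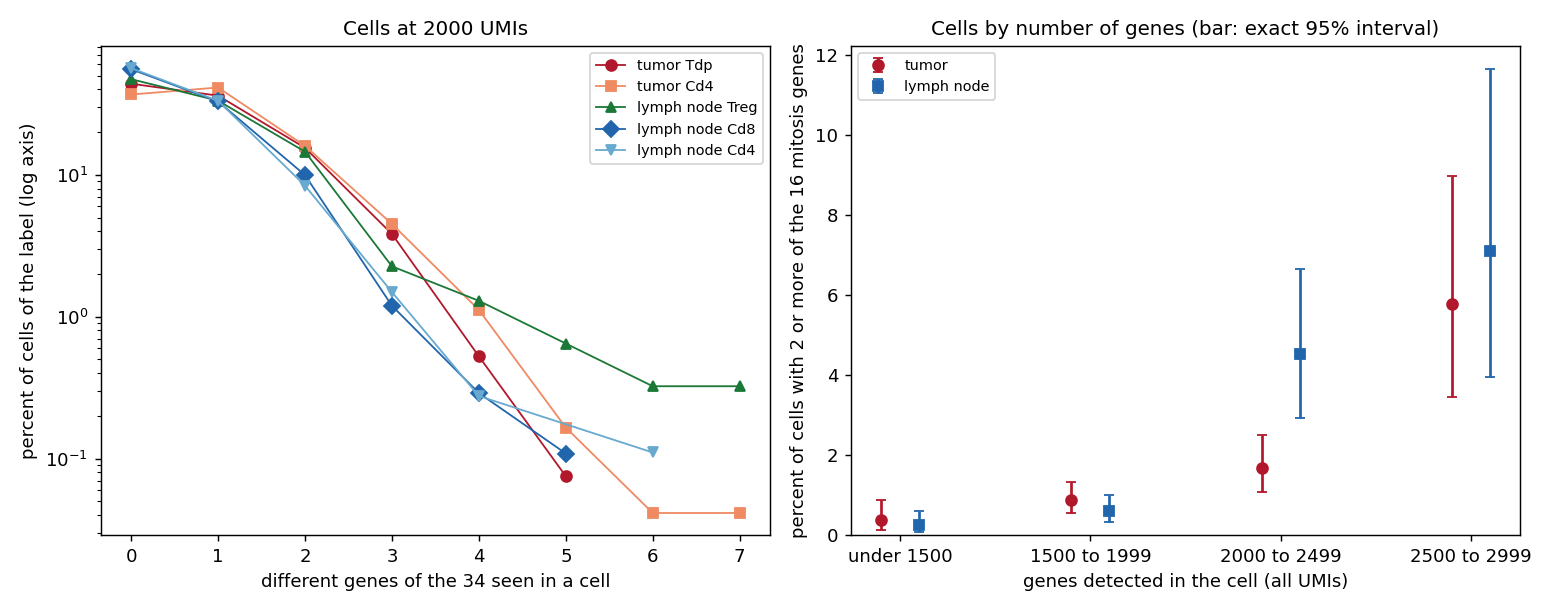
Left, percent of cells of each label (log axis) by the number of different genes seen among the 34 replication and core mitosis genes, with every cell at 2000 UMIs; numbers of genes with no cell are not drawn, so a line can pass over them. Right, percent of cells with 2 or more of 16 core mitosis genes by genes detected in the cell, with exact 95% intervals, which reaches 5.77% in tumor and 7.11% in lymph node in the last bin.

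Cells with Mki67 carried other mitosis genes more often in lymph node than in tumor. Of 231 tumor cells with an Mki67 UMI (median 6888 UMIs), 35 had another of the 16 genes (15.2%, 10.8% to 20.4%), against 9.63% of 5339 tumor cells without Mki67 (median 5827 UMIs). Of 62 lymph node cells with Mki67 (median 7138 UMIs), 20 had another of them (32.3%, 20.9% to 45.3%), against 7.21% of 4926 cells without it (median 5586 UMIs). The 2 tissues' intervals did not overlap. Cells were pooled over the labels of each library, whose makeup differs, and no split by label or count at equal depth was made. Ube2c was seen in 3.03% of tumor cells with Mki67 (1.23% to 6.14%) and in 22.6% of lymph node cells with Mki67 (12.9% to 35.0%), against 1.25% and 1.95% of cells without Mki67. Birc5 was seen in 1.30% and 11.3% of cells with Mki67 in tumor and lymph node, against 0.225% and 0.751% of those without. Top2a was not more frequent with Mki67 in tumor, at 11.3% of cells with and 11.5% of cells without it.

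Tumor Tdp cells were compared with tumor Cd4 cells, the 2 main labels of the tumor library. The replication sum was lower in Tdp cells, at 339 CPM against 405 CPM in Cd4 cells, a log2 ratio of -0.26 (-0.31 to -0.20). Most of this gap came from Dut alone (90.9 against 149 CPM in the same order). Of the 16 replication genes, 12 had intervals that held 0, 3 lay below 0 and 1 above it. The core mitosis sum was 84.1 CPM in Tdp cells and 97.0 CPM in Cd4 cells, at -0.21 (-0.31 to -0.10), and without Cenpa and Top2a it was 28.7 CPM in Tdp cells and 26.3 CPM in Cd4 cells, at 0.13 (-0.07 to 0.32). The core sum was thus lower in Tdp cells only with Cenpa and Top2a counted. Scaling by TMM, a trimmed mean over genes, moved all genes by 0.12 and left -0.14 and -0.089 for the replication and core sums.

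A gene was called when its mean over both groups reached 5 CPM and its log2 ratio of CPM plus 1 reached 2-fold. Of the 40 members 21 reached that mean and none was called, against 1.36% of 8007 genes called higher and 2.32% called lower in Tdp cells (109 and 186 genes, and 144 and 146 under TMM). The median log2 ratio was -0.13 for the 21 members and -0.10 for all genes tested. The largest differences were those of Cks2, at 95.8 CPM in Tdp cells and 164 CPM in Cd4 cells (-0.77), Dut, at 90.9 and 149 CPM in the same labels (-0.71), and Cks1b, at 7.40 and 12.5 CPM (-0.69). Below the 5 CPM mean, Ube2c had 75 UMIs in Tdp cells and 24 in Cd4 cells, a 2.39-fold ratio of CPM (log2 interval 0.58 to 1.99), and Aurkb had 38 and 10 UMIs, a 2.91-fold ratio (0.51 to 2.71). Intervals of 4 members lay above 0 and those of 9 below, and they are not adjusted for the 40 genes. The share of all genes with such intervals was not counted here either.

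The tumor library was compared with the lymph node library as a whole. The replication sum was 365 CPM in tumor and 255 CPM in lymph node, at a log2 ratio of 0.52 (0.48 to 0.56), and the core mitosis sum 90.3 CPM in tumor and 61.5 CPM in lymph node, at 0.55 (0.47 to 0.64). The sum of the 6 broader genes was lower in tumor, at 738 CPM against 819 CPM in lymph node (-0.15). With totals that leave out receptor, mitochondrial and ribosomal protein genes, the first 2 ratios were 0.23 and 0.26. Dut, Pcna and Mcm6 made up most of the difference in the replication sum. Of 20 members tested 4 were called higher and none lower, against 9.22% of 8123 genes called higher and 5.45% lower. These were Dut at 2.10-fold, Mki67 at 3.25-fold, Top2a at 2.19-fold and Cks2 at 2.06-fold. Under TMM none of the 4 was called, since Dut, Top2a and Cks2 stood at 0.99, 0.99 and 0.96 on the log2 scale and the mean of Mki67 was under 5 CPM. The label makeup of the libraries differs (Tdp and Cd4 cells in tumor, Cd8, Cd4 and Treg cells in lymph node), so the labels were also compared singly. Tumor and lymph node labels still differed in receptor. At least 1 chain of the most common tumor receptor was carried by 2682 of 2693 Tdp and 2435 of 2451 Cd4 cells in tumor. No lymph node Cd8 or Cd4 cell carried any of its chains.

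Between tumor and lymph node Cd4 cells, replication and core mitosis genes stood higher in tumor in sum, and 6 members were called. Between these Cd4 cells the replication sum was 405 CPM in tumor and 245 CPM in lymph node, at 0.72 (0.65 to 0.80), and the core mitosis sum 97.0 CPM in tumor and 58.8 CPM in lymph node, at 0.72 (0.58 to 0.87). Without Cenpa and Top2a the core sum was 26.3 CPM in tumor and 12.8 CPM in lymph node Cd4 cells, at 1.04 (0.73 to 1.35). Most of the difference in the replication sum came from Dut, Mcm6 and Pcna. Of 19 members tested 5 were called higher and 1 lower, against 12.4% of 8159 genes called higher and 6.62% lower. The 5 were Mcm6 (2.84-fold), Dut (3.05-fold), Hells (2.49-fold), Top2a (3.07-fold) and Cks2 (3.51-fold), and Stmn1 was lower at 0.391-fold. All 6 calls stood under TMM, which moved all genes by -0.12. The median log2 ratio was 0.23 for the 19 members and 0.13 for all genes tested.

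Several genes below the 5 CPM mean also had intervals above 0 between Cd4 cells. Mki67 had 96 UMIs in tumor and 12 in lymph node Cd4 cells (log2 interval 1.49 to 3.37), Kif11 had 33 and 4 (0.92 to 4.37) and Nusap1 34 and 4 (0.97 to 4.41). Cdk1 had 33 UMIs in tumor Cd4 cells and 3 in lymph node Cd4 cells, a 7.08-fold ratio of CPM with an interval of 1.15 to 5.17 on the log2 scale. Ube2c ran the other way, with 24 UMIs in tumor and 28 in lymph node Cd4 cells (-1.71 to -0.02). The core mitosis genes thus did not all run the same way.

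Between tumor Tdp and lymph node Cd8 cells, the replication sum was 339 CPM in Tdp and 253 CPM in Cd8 cells, at 0.43 (0.37 to 0.48), and the core mitosis sum 84.1 CPM in Tdp and 55.2 CPM in Cd8 cells, at 0.61 (0.49 to 0.72). Most of the difference in the replication sum again came from Dut, Mcm6 and Pcna. Of 20 members tested only Mki67 was called, at 8.60 CPM in Tdp and 2.43 CPM in Cd8 cells (3.54-fold), against 9.22% of 8038 genes called higher and 5.34% lower. Mcm6 was at the threshold, at 56.6 CPM in Tdp and 28.1 CPM in Cd8 cells (2.02-fold of CPM, 0.99 on the log2 scale of CPM plus 1). Birc5 had 8 UMIs in Tdp and 27 in Cd8 cells (log2 interval -3.11 to -0.59). In both pairs of labels, totals without receptor, mitochondrial and ribosomal protein genes lowered the replication and core ratios, to 0.41 and 0.41 between Cd4 cells and to 0.11 and 0.29 between Tdp and Cd8 cells. The calls of the pairs rest on the thresholds: Mki67 was under the 5 CPM mean in the Cd4 pair, where its log2 ratio was 1.75 against 1.49 between Tdp and Cd8 cells, and Mcm6 missed 2-fold between Tdp and Cd8 cells. The difference between the pairs was not tested.

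**Figure D3:**
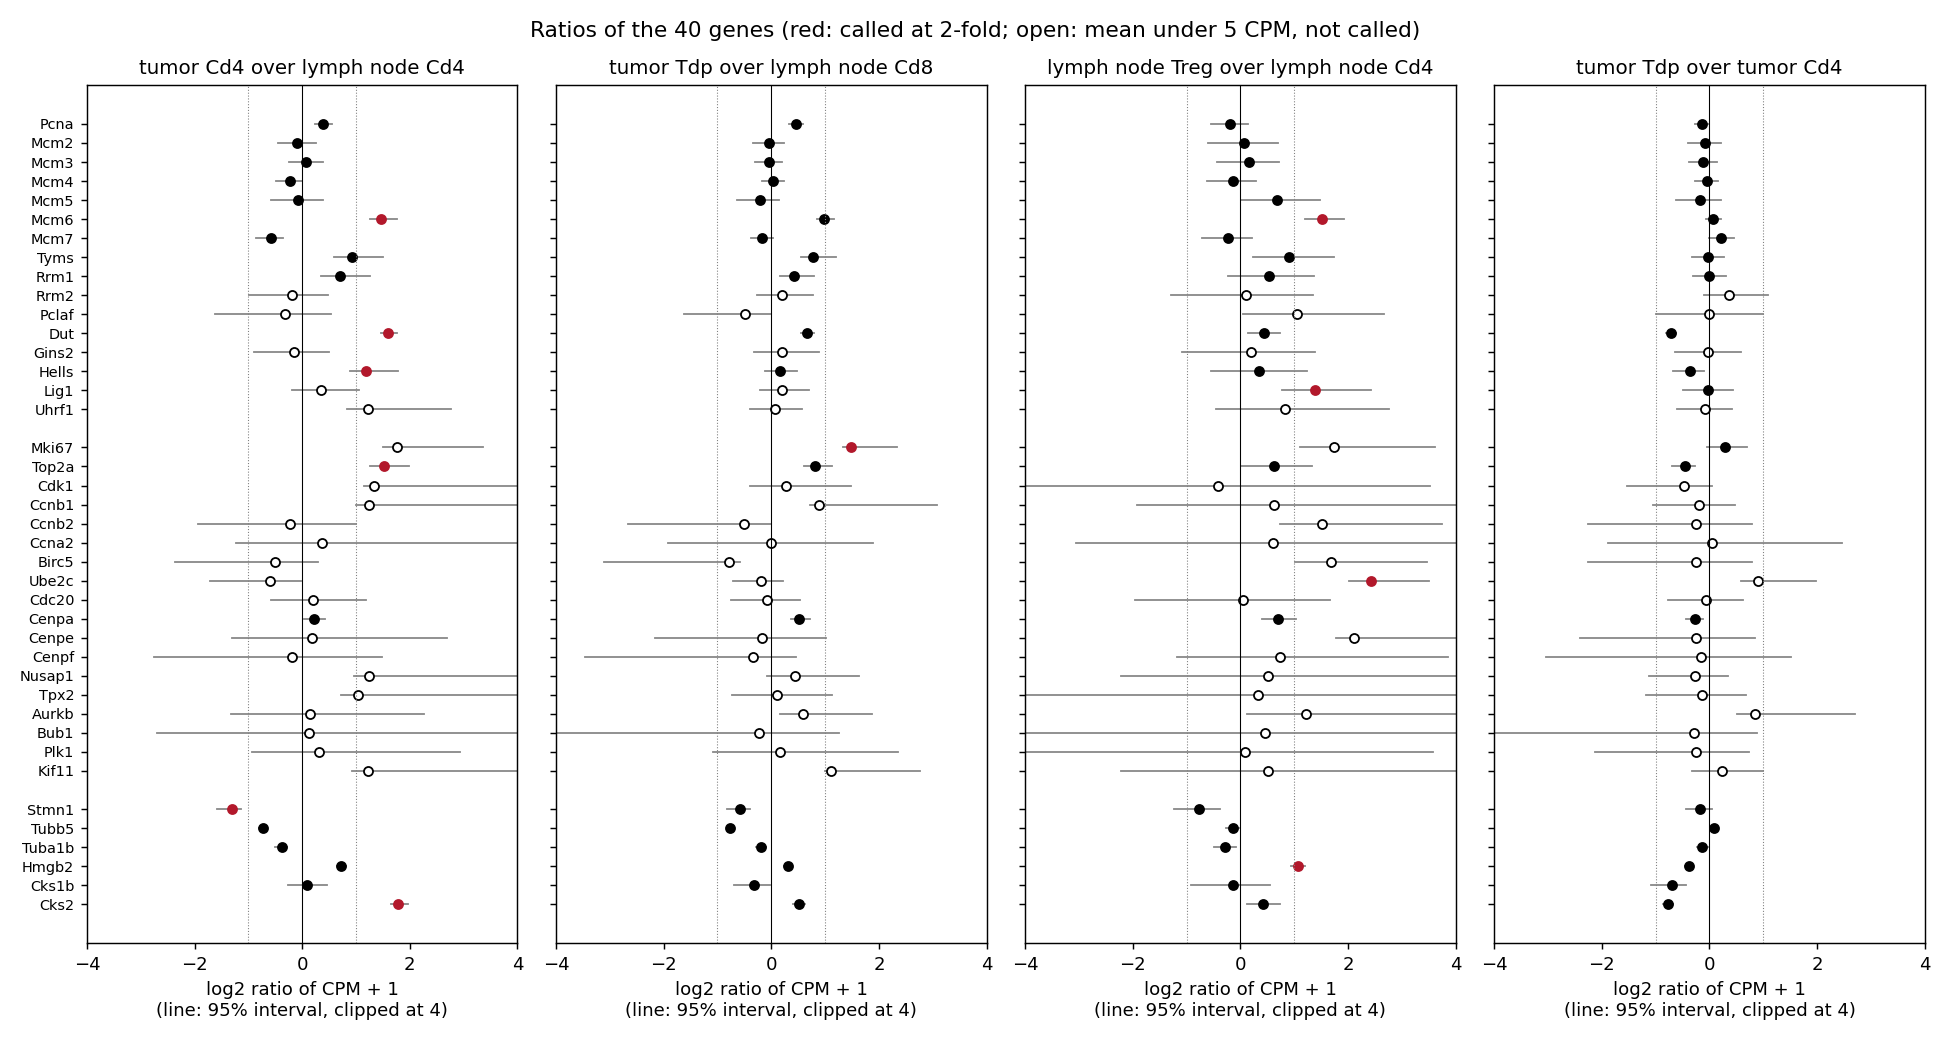
Log2 ratio of CPM plus 1 for each of the 40 genes in 4 comparisons, with lines for the exact 95% interval of the CPM ratio without the added 1 (clipped at 4), so a point can lie beyond its line; red points were called at 2-fold and open points had a mean under 5 CPM. The Cd4 pair has 6 red points, the Tdp and Cd8 pair 1, Treg over Cd4 cells 4, and Tdp over Cd4 cells in tumor none.

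Lymph node Treg cells were set against lymph node Cd4 cells after the levels above had been seen. The core mitosis sum was 132 CPM in Treg cells and 58.8 CPM in Cd4 cells, at a log2 ratio of 1.16 (0.94 to 1.38), and without Cenpa and Top2a it was 56.2 CPM in Treg and 12.8 CPM in Cd4 cells, 4.40-fold or 2.14 on the log2 scale (1.74 to 2.53). The replication sum was 318 CPM in Treg cells and 245 CPM in Cd4 cells, at 0.38 (0.25 to 0.51). TMM moved all genes by -0.34 here, which left 0.83 for the core sum and 0.039 for the replication sum.

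Of 21 members tested 4 were called higher in Treg cells and none lower, against 10.4% of 8288 genes called higher and 1.77% lower (865 and 147 genes, and 511 and 301 under TMM). They were Mcm6 at 55.7 CPM in Treg and 18.9 CPM in Cd4 cells (2.95-fold), Lig1 at 11.6 and 3.78 CPM (3.06-fold), Ube2c at 21.0 and 3.11 CPM (6.75-fold) and Hmgb2 at 360 and 171 CPM (2.11-fold). Under TMM Hmgb2 was no longer called and Stmn1, at 28.4 CPM in Treg and 49.3 CPM in Cd4 cells, was called lower. Below the mean of 5 CPM, the log2 intervals of Mki67 (13 UMIs in Treg and 12 in Cd4 cells, 1.11 to 3.62), Birc5 (13 and 13 UMIs, 1.01 to 3.47), Ccnb2 (9 and 9, 0.73 to 3.75) and Cenpe (10 and 4, 1.77 to 5.69) lay above 0.

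Markers of other cells moved with the Treg label. Of 321 Treg cells 304 had 2 or more of the regulatory T cell genes Foxp3, Ikzf2, Il2ra and Ctla4 (94.7%), against 23 of 1873 Cd4 cells (1.23%). The summed level of 6 B cell markers was 455 CPM in Treg cells and 233 CPM in Cd4 cells, almost all of it Ighm, and 38 Treg cells (11.8%) and 5 Cd4 cells (0.267%) had 2 or more of these markers. Cd79b alone stood at 28.4 CPM in Treg and 0.445 CPM in Cd4 cells, and Cd8a at 105 CPM in Treg and 7.56 CPM in Cd4 cells. Without the 40 Treg cells and 5 Cd4 cells that had 2 or more B cell, myeloid or melanoma markers, the core mitosis ratio was 1.16 and the replication ratio 0.38.

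**Figure D4:**
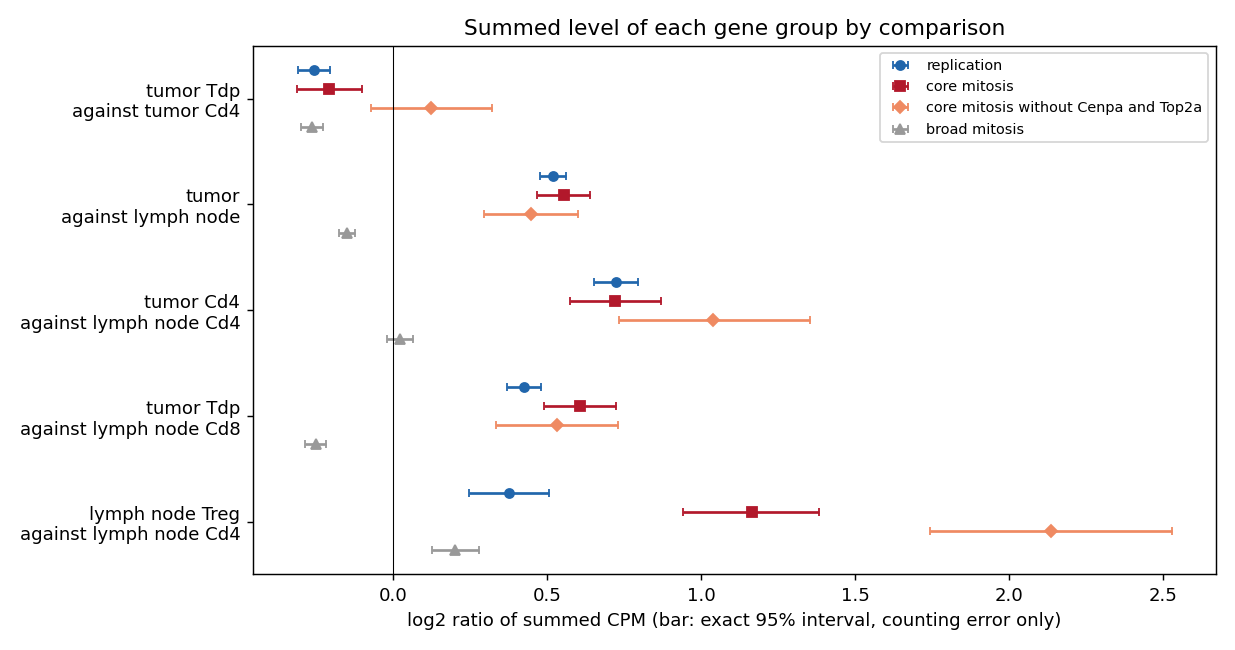
Log2 ratio of the summed level of each gene group in 5 comparisons, with exact 95% intervals for counting error only. The core mitosis sum without Cenpa and Top2a reaches 2.14 in lymph node Treg over Cd4 cells, while the 6 broader mitosis genes stay between -0.26 and 0.20 in all 5 comparisons.

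Lists of other cell cycle genes were counted in the same way. Between tumor Tdp and tumor Cd4 cells, none was called of 25 other replication genes, 11 other mitosis genes, 6 G1 cyclins and kinases, 13 RB, E2F and DREAM factors and 12 chromatin and histone genes tested. Of 14 inhibitors and quiescence genes 1 was higher and 1 lower. Over all genes tested 1.36% were higher and 2.32% lower, so that a list of these sizes with no call is near the background. Cdkn2a, the locus of the INK4A and ARF inhibitors (chr4:89274473-89294619), stood at 43.0 CPM in Tdp cells, against 18.9 CPM in Cd4 cells (1.14 on the log2 scale). Its neighbour Cdkn2b, which encodes INK4B, stood at 9.65 CPM in Tdp cells, against 22.4 CPM in Cd4 cells (-1.14). The 2 INK4 genes were thus called in opposite directions. The mitotic motor gene Kif15 stood at 13.3 CPM in Tdp cells, against 27.4 CPM in Cd4 cells (-0.99), and Racgap1, needed for cytokinesis, at 18.9 and 9.60 CPM (0.91), both just inside 2-fold.

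Between tumor and lymph node Cd4 cells, 2 of 25 other replication genes were higher and 1 lower, 3 of 12 other mitosis genes higher and 2 lower, 1 of 7 G1 genes higher, 2 of 15 RB, E2F and DREAM factors higher and 2 of 12 chromatin genes higher. Of 14 inhibitors and quiescence genes 4 were higher and 3 lower. Over all genes tested 12.4% were higher and 6.62% lower in this pair, and the replication and RB, E2F and DREAM lists lay near these shares. Cdkn1a (chr17:29090979-29100722), the p21 inhibitor, stood at 190 CPM in tumor Cd4 and 14.5 CPM in lymph node Cd4 cells, 13.1-fold. Cdkn2b had 313 UMIs in tumor and 4 in lymph node Cd4 cells, and Cdkn2a 264 and 1, a 170.0-fold ratio of CPM with a log2 interval of 4.92 to 12.7. Klf2, a factor of resting T cells, was lower, at 159 CPM in tumor and 1198 CPM in lymph node Cd4 cells (0.133-fold). Cdk6, the partner of D cyclins, stood at 44.7 CPM in tumor and 8.45 CPM in lymph node Cd4 cells (5.29-fold). Kif15 had 383 UMIs in tumor and 3 in lymph node Cd4 cells (82.2-fold of CPM, log2 interval 4.80 to 8.65), while Kif23, a cytokinesis motor, stood at 3.15 CPM in tumor and 10.3 CPM in lymph node Cd4 cells (0.305-fold). Of the other replication genes, Rpa2, a single-strand DNA binder, stood at 55.1 and 20.3 CPM in tumor and lymph node Cd4 cells and Gmnn, which blocks relicensing of origins, at 26.3 and 11.0 CPM, both called higher, and Ung, a uracil glycosylase, at 2.94 and 9.34 CPM, called lower.

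Between tumor Tdp and lymph node Cd8 cells, 3 of 25 other replication genes were higher, 2 of 12 other mitosis genes higher and 2 lower, 1 of 7 G1 genes higher and 2 lower, 1 of 15 RB, E2F and DREAM factors higher and 1 lower, 1 of 12 chromatin genes higher, and 3 of 13 inhibitors higher and 3 lower. Over all genes tested 9.22% were higher and 5.34% lower. Cdkn1a stood at 158 CPM in Tdp cells, against 16.9 CPM in Cd8 cells, and Klf2 at 183 CPM in Tdp and 1131 CPM in Cd8 cells. Cdkn2a had 784 UMIs in Tdp and 2 in Cd8 cells (389-fold of CPM, log2 interval 6.75 to 11.7). Myc, a driver of T cell growth, was lower, at 18.1 CPM in Tdp and 87.6 CPM in Cd8 cells (0.207-fold). Racgap1 stood at 0.614-fold in this pair and at 3.60-fold between tumor and lymph node Cd4 cells. The inhibitor genes did not run one way. Cdkn1b, which encodes p27, stood at 68.5 CPM in tumor Cd4 and 115 CPM in lymph node Cd4 cells, and at 60.2 CPM in Tdp and 70.5 CPM in lymph node Cd8 cells. Cdkn1c, which encodes p57, stood at 1.07 CPM in tumor Cd4 and 2.89 CPM in lymph node Cd4 cells, and at 0.877 CPM in Tdp and 2.93 CPM in lymph node Cd8 cells. These 2 genes, named after their values were seen, stood lower in tumor in both pairs without being called. The whole libraries gave 2 higher and 1 lower of 25 other replication genes, 1 and 2 of 12 other mitosis genes, 1 and 1 of 7 G1 genes, 4 and 3 of 14 inhibitors, 1 and 0 of 15 RB, E2F and DREAM factors, and 2 and 0 of 12 chromatin genes, against 9.22% and 5.45% of all genes tested.

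Within a label, cells of the class defined above and cells with none of its genes had overlapping intervals for Cdkn1a. At 2000 UMIs Cdkn1a was seen in 25 of 118 tumor Tdp cells of the class (21.2%, 14.2% to 29.7%) and in 22.2% of 1169 Tdp cells with none of the 34 genes. In tumor Cd4 cells it was seen in 22.5% of 142 class cells (16% to 30.3%) and 24.5% of 891 cells with none. The intervals allow differences of several points either way. Those of Klf2 overlapped too. It was seen in 27.1% of class cells and 19.6% of cells with none in tumor Tdp, and in 25.4% and 17.7% in tumor Cd4. Cdkn2c, again with overlap, was seen in 11.0% and 5.82% in tumor Tdp and in 4.23% and 3.59% in tumor Cd4. Cdk6 was higher in class cells in tumor Tdp (11.0% and 7.01%) and lower in tumor Cd4 (7.75% and 8.87%).

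Between lymph node Treg and Cd4 cells, none of 26 other replication genes was called, 3 of 11 other mitosis genes were higher, 2 of 7 G1 genes, 4 of 16 RB, E2F and DREAM factors and 3 of 12 chromatin genes were higher, and 2 of 12 inhibitors were higher and 1 lower. Over all genes tested 10.4% were higher and 1.77% lower. Racgap1 stood at 13.7 CPM in Treg and 2.67 CPM in Cd4 cells (5.12-fold), Cdk6 at 40.4 and 8.45 CPM (4.79-fold) and Myc at 121 and 48.1 CPM (2.52-fold). Cdkn1a stood at 48.3 CPM in Treg and 14.5 CPM in Cd4 cells (3.34-fold), and Ezh2, the polycomb methyltransferase, at 37.3 and 11.9 CPM (3.13-fold).

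**Figure D5:**
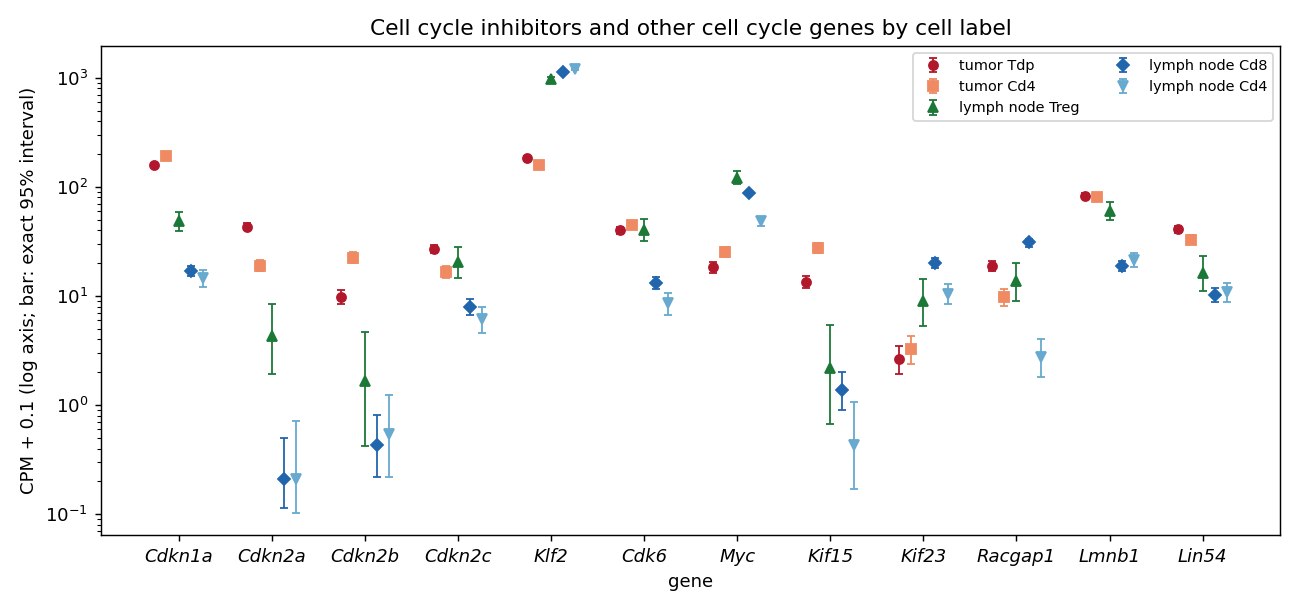
Level (CPM plus 0.1, log axis) of inhibitors, Klf2 and other cell cycle genes named from the lists, in 5 cell labels with exact 95% intervals. Cdkn1a, Cdkn2a, Cdkn2b and Kif15 lie higher in both tumor labels than in the 3 lymph node labels, and Klf2 lies lower in both tumor labels.

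Markers of cells other than T cells were low or at 0 in most labels. Summed myeloid markers ranged from 1.11 to 4.75 CPM, summed melanoma markers stood at 1.19 CPM or less, natural killer markers at 3.53 CPM or less and the fibroblast marker Col1a1 at 0.331 CPM or less. B cell markers summed to 8.06 and 24.9 CPM in tumor Tdp and Cd4 cells and to 455, 216 and 233 CPM in lymph node Treg, Cd8 and Cd4 cells, chiefly Ighm, with 4 of 6 markers at 0 in both tumor labels. The part of these cells in the tissue differences was not tested beyond leaving them out: without cells with 2 or more such markers the replication ratio between tumor and lymph node was 0.52 and the core ratio 0.56. In RefSeq, Mcm7, Pclaf, Gins2, Lig1, Ccna2, Cdc20 and Nusap1 overlap another gene of the table, Tubb5 and Tuba1b have near-identical family members, and the sources used here do not say how shared reads were counted.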

How the data were processed

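Single-cell RNA was measured with the 10x Genomics 5′ kit, with 8100 cells in library preparation per the labels' protocols. The submitters' processing notes name Cell Ranger 3.1.0 with mm10. The authors deposited raw UMI counts per gene and cell, and an annotation table with other values per cell (library, cell label, receptor chains); its values were taken as deposited. The sources used here do not state cell filters or label rules. The table holds 5570 tumor and 4988 lymph node cells, and 1768 and 841 of its genes are at 0 throughout these libraries. The libraries shared 36 cell barcodes.

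Counts were summed over the cells of a label and scaled to CPM. Ratios were log2 of CPM plus 1, called at 2-fold when the mean of both groups was 5 CPM or more, over all genes without receptor segments (and without coreceptors in comparisons of Tdp cells). Interval methods stand in the report. Ratio and thinning code was tested on simulated data. The 40 members, all lists, the split into core and broader genes and the tests were chosen with earlier results of these data known. Named genes were all members and, of each other list, up to 4 with the largest ratio in a comparison. Doublets were not called; leaving out cells above the 95th percentile of UMIs was an alternative. Others were scaling, thinning, filters, pseudocounts and cell classes. Promoters came from RefSeq (GRCm38.p6). Python 3.11.15, numpy 2.4.6, scipy 1.17.1, pandas 2.3.3, matplotlib 3.10.9, R 4.3.3 and edgeR 4.0.16 (TMM factors) were used.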

Additional observations from a re-analysis of the deposited data

How the results depend on the processing

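No paired analysis was possible because each tissue had 1 RNA library, and for the same reason no replicate could be left out. No ratio of summed levels changed direction except the core mitosis ratio of tumor Tdp over tumor Cd4 cells, which was 0.13 without Cenpa and Top2a, an alternative chosen after seeing the data, as was the Treg comparison. In the same alternative the core ratio was 0.45 for tumor over lymph node, 1.04 for tumor over lymph node Cd4 cells and 2.14 for lymph node Treg over Cd4 cells. TMM scaling gave -0.14 (replication) and -0.089 (core) for Tdp over Cd4 cells in tumor, 0.45, 0.61 and 0.35 (replication) for tumor over lymph node, the Cd4 pair and Tdp over Cd8 cells, and 0.039 (replication) and 0.83 (core) for Treg over Cd4 cells. Totals without receptor, mitochondrial and ribosomal protein genes gave 0.23 and 0.26 (replication and core) for tumor over lymph node, 0.41 and 0.41 for the Cd4 pair, 0.11 and 0.29 for Tdp over Cd8 cells and 0.084 and 0.87 for Treg over Cd4 cells. Thinning to 2000 UMIs gave 0.58 (replication) for tumor over lymph node, 0.89 (core) for the Cd4 pair and 0.50 (replication) for Tdp over Cd8 cells. For the other changes of value the cause was not tested.

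Genes called numbered 295 (Tdp over Cd4 cells in tumor), 1192 (tumor over lymph node), 1548 (Cd4 pair), 1170 (Tdp over Cd8 cells) and 1012 (Treg over Cd4 cells). Without a filter they were 533, 1888, 2399, 1883 and 1946, and at a mean of 20 CPM 129, 662, 830, 624 and 471, where fewer genes were tested. A pseudocount of 5 gave 194 for Tdp over Cd4 cells in tumor. The share of cells in the class, in tumor Tdp, tumor Cd4, lymph node Treg, Cd8 and Cd4 cells, was 19.9%, 21.9%, 19.4%, 11.6% and 10.3% at 2 genes, 0.0751%, 0.248%, 1.29%, 0.109% and 0.110% at 5 genes, 10.2%, 14.0%, 11.5%, 5.61% and 5.07% at 3000 UMIs, and 42.6%, 38.8%, 31.2%, 25.5% and 13.5% on all UMIs. The order of tumor Tdp and Cd4 cells thus turned round on all UMIs, and that of lymph node Cd8 and Cd4 cells, 1.59% and 1.88% as reported, at 2 genes, at 3000 UMIs and on all UMIs. Weighting cells equally or leaving out the deepest 5% of cells kept these ratios and shares within their intervals. So did leaving out cells with markers of other types or cells with shared barcodes. For Tdp over Cd4 cells in tumor, classes by UMIs or cells with a chain of the most common receptor also kept the ratios within them. Depth limits single core mitosis genes, most of which had under 50 UMIs per label.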

Other observations

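Levels of members were hardly correlated over single cells. At 2000 UMIs the median correlation of pairs was below 0.01 within and between the gene groups in 5313 tumor and 4888 lymph node cells, where counts per cell are mostly 0. The highest pairs were Ccnb2 with Cenpe in tumor (r = 0.308) and Ccnb2 with Birc5 in lymph node (r = 0.236), and they rest on few cells that carry both genes. Of 7927 other genes, the one whose level followed the per-cell sum of the 34 genes most closely over tumor cells was Tnfrsf4, at r = 0.0707 in tumor and 0.0567 in lymph node, too weak to be called a relation, and Nrgn, Srgn, Gramd1b, Ptma, Cd82, Ubb, Tnfaip8, Hnrnpu and Nrp1 followed.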
